A study of Mus musculus with 47 samples.

Results

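Gastrocnemius muscle of female and male CAST/EiJ mice was compared in 15 of the 47 libraries of the study. These were the 8 libraries whose titles give this strain with sex F and the 7 that give it with sex M. CAST/EiJ is a wild-derived inbred strain of Mus musculus castaneus. The females comprised 4 libraries on a diet with 10% fat and 4 on a diet with 44% fat, and the males 3 and 4. Both diets are labelled as containing fiber; the first is the control and the second is described as rich in fat and sugar. All 4 groups were wild type with no further treatment, entered their diet at 6 weeks of age and gave tissue at 15 weeks. Neither the oestrous stage nor the clock time of tissue collection was found in the labels. No label states that each library is 1 animal. The p-values therefore reflect the spread among libraries, which was estimated over all 47 and may be technical. The other libraries were 16 of the strain C57BL/6J and 16 of NZO/HlLtJ, of both sexes, on the same diets and of the same ages. Of 20796 genes measured, 16592 autosomal genes passed the filter on low counts, and only these are counted here.

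The gastrocnemius is a calf muscle made mostly of fast-contracting fibres. Males and females differ in circulating hormones: testosterone acts on fibres through the androgen receptor, while oestradiol, progesterone and prolactin act through receptors of their own. Polyamines are small charged molecules that cells make from ornithine and S-adenosylmethionine, and genes of their synthesis are known to respond to androgens in rodent muscle. In bulk tissue, fewer cells of a type and less RNA per cell cannot be told apart.

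Library depth was 32950000 to 49970000 expected counts in the females and 31020000 to 51380000 in the males. As a check of the labels, 4 of 4 Y-linked genes were at most 0.0428 CPM (counts scaled to a common library total, as in all levels below) in a female library and at least 14.7 CPM in a male one. Of the X-linked check genes Xist, Tsix, Kdm6a, Kdm5c, Ddx3x and Eif2s3x, 6 of 6 were higher in the females. Levels in CPM are not scaled by gene length and are compared only between libraries. Skeletal muscle fibre markers were abundant: the 10 markers summed to 139680 to 180930 CPM in the females and 156690 to 200070 CPM in the males, and 0 of the 10 differed. The 12 lymphocyte markers summed to 0.339 to 91.5 CPM in the females and 0.424 to 70.7 CPM in the males, with 3 libraries below 1 CPM (female 10% fat replicate 1, female 44% fat replicate 3 and male 44% fat replicate 2). None of the lymphocyte, macrophage, white adipocyte, brown adipocyte, endothelial or tendon markers differed between the sexes.

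The question asked of these libraries was which autosomal genes differ between female and male muscle in this strain, averaged over both diets. At an adjusted p under 0.05, 365 genes were higher in the females, which is 2.2% of those tested, and 335 were lower, which is 2.02%. Without male 10% fat replicate 2 the counts were 230 and 193, and without female 10% fat replicate 3 the lower count was 218. When each of the 15 libraries was left out in turn, 330 of the 700 genes (181 higher and 149 lower) were called every time. All differences are given as log2 of female over male with their standard error. The 2 sets differed in level and size. Of the genes higher in females, 193 had a mean under 5 CPM in the females and 172 were at or above it, and their median difference was 0.69. Of the genes lower in females, 43 were under 5 CPM in the males and 292 at or above it, and their median difference was −0.33. Differences of at least 2-fold were found for 136 higher genes and 37 lower ones, but for 14 and 18 when a level of 5 CPM was also required. The median over all autosomal genes tested was 0.0028. Every female library lay above every male library for 100 of the higher genes, against 0.717% of all genes tested, and below for 82 of the lower genes, against 0.597% (1.31% in either direction).

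**Figure D1:**
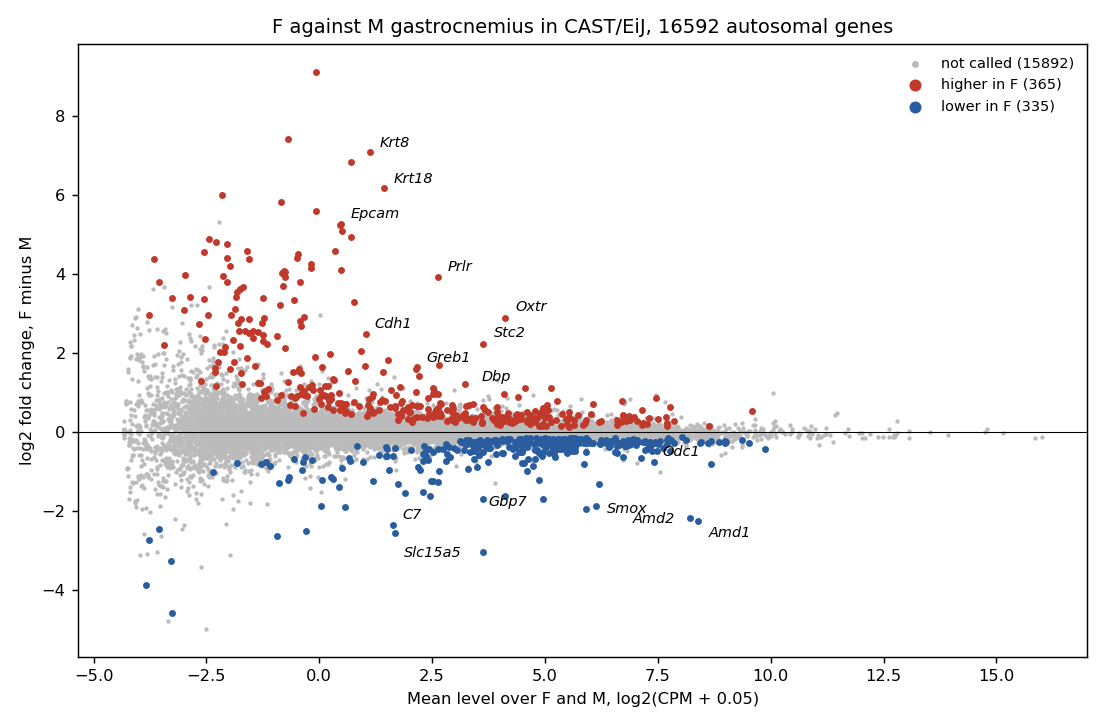
Log2 difference of female minus male (vertical axis) against the mean level over both sexes, as log2(CPM + 0.05), for 16592 autosomal genes; each point is a gene and colours mark adjusted p under 0.05. The 365 genes higher in females reach differences above 4 at low levels, whereas the largest differences at high levels are decreases, with Amd1 at −2.25.

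Genes of polyamine metabolism were lower in females at the steps that Amd1, Smox and Odc1 catalyse. Of the 11 autosomal members of the list for polyamine synthesis and turnover, 4 were lower in females and 0 higher, against 2.02% of all genes tested lower; the list median was −0.05. Amd1, which encodes S-adenosylmethionine decarboxylase, the enzyme that makes the aminopropyl donor for spermidine and spermine, was measured at 83.2, 122 and 147 CPM (lowest, median and highest library) in females and at 447, 535 and 750.2 CPM in males. The sexes did not overlap, and the log2 difference was −2.25 ± 0.13, adjusted p = 1.33e-15. Smox, spermine oxidase, which turns spermine back into spermidine, ranged over 23.2, 32.2 and 36.1 CPM in females and 78.9, 110.4 and 144 CPM in males, again with no overlap (−1.87 ± 0.17, adjusted p = 2.8e-10). Odc1, ornithine decarboxylase, which makes putrescine in the first step, was at 107, 124 and 160.2 CPM in females and 167, 218 and 269 CPM in males (−0.75 ± 0.13, adjusted p = 0.000166). Its groups also stayed apart, but the gap was small beside that of Amd1. Amd2, a near-identical copy of Amd1, gave −2.17 ± 0.13, adjusted p = 4.82e-15. None of the deposited counts of Amd1, Amd2 or Odc1 were whole numbers, so reads may have been split with other loci and the share of each copy is uncertain. The calls of Amd1 and Amd2 may therefore not be separate ones among the 4. The other 7 members did not pass the test, with differences from −0.05 for Oaz2 and Paox to 0.15 for Azin2 and Sat2. Among these were Srm, spermidine synthase (0.11, adjusted p = 0.817), and the antizyme Oaz1 (−0.02, adjusted p = 0.945).

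**Figure D2:**
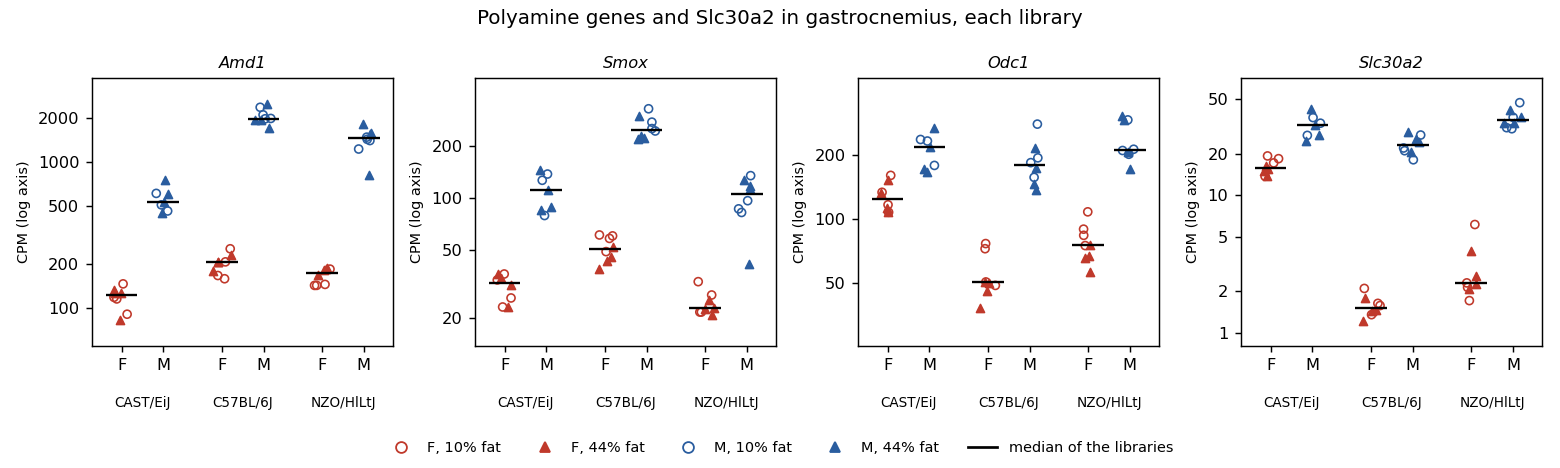
Level of Amd1, Smox, Odc1 and Slc30a2 in each library (CPM, log axis) by strain and sex; open circles are 10% fat, filled triangles 44% fat, and bars the median. In CAST/EiJ, male and female libraries do not overlap for any of the 4 genes, and for Slc30a2 the gap between the sexes is narrower than in the other strains.

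The 250 bases before the transcription start are shown for Amd1 and Odc1, which fell together. They come from the RefSeq promoter table (GRCm38.p6) and are written 5′ to 3′ on the gene's own strand, all in lower case because no searched motif was matched. Amd1 lies on the minus strand with this stretch at chr10:40302189-40302438, and Odc1 on the plus strand with it at chr12:17544623-17544872.
Amd1: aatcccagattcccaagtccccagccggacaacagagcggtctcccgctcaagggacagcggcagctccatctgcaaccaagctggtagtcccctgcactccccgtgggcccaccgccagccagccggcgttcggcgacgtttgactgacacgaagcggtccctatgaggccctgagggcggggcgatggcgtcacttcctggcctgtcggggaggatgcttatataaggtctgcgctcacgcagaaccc
Odc1: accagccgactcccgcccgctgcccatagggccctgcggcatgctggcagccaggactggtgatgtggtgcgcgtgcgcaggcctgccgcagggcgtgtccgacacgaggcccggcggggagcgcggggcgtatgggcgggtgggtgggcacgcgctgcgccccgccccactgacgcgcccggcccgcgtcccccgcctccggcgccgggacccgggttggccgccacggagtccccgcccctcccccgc
Neither stretch, nor that of Smox, held the androgen response half-site AGAACA on either strand, and so not its inverted repeat with 3 bases between, the full element. The half-site occurs in 16.1% and the full element in 0.00913% of 32851 promoter stretches of this length. The start used for Smox lies 366 bases from the deposited gene start. For Amd1, the bases just after the start used were not found in a transcript of the GENCODE M21 annotation. A missing match says only that these letters are not in this window.

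Among the other genes lower in females at 5 CPM or more, Slc15a5, a member of the family of peptide transporters, had the largest difference: 1.19, 3.07 and 3.43 CPM in females and 14.2, 21.4 and 27 CPM in males (−3.03 ± 0.23, adjusted p = 3.54e-12). C7, a component of the complement membrane attack complex, was at 0.73 to 1.38 CPM in females and 2.29 to 7.77 CPM in males (−2.35 ± 0.21, adjusted p = 4.19e-10). B3gat1, a glucuronyltransferase that helps build the HNK-1 carbohydrate, was at 0.654 to 1.15 CPM and 3.9 to 7.49 CPM (−2.56 ± 0.34, adjusted p = 1.91e-06). Females and males did not overlap for any of these genes. Gbp7, an interferon-inducible GTPase, was at 8.98, 17 and 19.4 CPM in females and 35.9, 43.1 and 59.2 CPM in males (−1.69 ± 0.17, adjusted p = 5.64e-09), though most of its counts were fractional. Casr, the calcium-sensing receptor, was at 2.52, 3.13 and 4.36 CPM and 6.52, 7.9 and 10.1 CPM (−1.23 ± 0.14, adjusted p = 6.8e-08). Cdk19, a kinase of the Mediator complex with many fractional counts, was at 14.2 to 20.6 CPM in females and 35.5 to 46.8 CPM in males (−1.21 ± 0.11, adjusted p = 2.12e-10). Each of these also separated the sexes in all libraries.

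Further decreases without overlap were seen for Gadl1, a decarboxylase of acidic amino acids (−1.52, adjusted p = 8.12e-11), and Nmrk2, a muscle kinase of nicotinamide riboside (−1.32, adjusted p = 0.000337, none of its counts whole). The same held for Npnt, the matrix protein nephronectin (−1.27, adjusted p = 6.29e-06), and Mchr1, the receptor of melanin-concentrating hormone (−1.24, adjusted p = 0.00106). Kcnf1, a modulatory potassium channel subunit, was lower with overlapping libraries (−1.70 ± 0.31, adjusted p = 0.000474). Gadd45g, a stress-response gene, spread widely, from 3.25 to 19.5 CPM in females and 7.95 to 57.4 CPM in males (−1.63 ± 0.49, adjusted p = 0.0476), and its call was lost without any 1 of 13 of the 15 libraries, with adjusted p up to 0.114.

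Prlr and Oxtr had the largest increases after Krt18 among genes at 5 CPM or more. Prlr, the prolactin receptor, was at 3.64, 8.14 and 32.5 CPM in females and 0.398, 0.7 and 0.936 CPM in males, with no overlap (3.92 ± 0.49, adjusted p = 8.58e-07). Oxtr, the oxytocin receptor, was at 8.53, 18.4 and 65.5 CPM in females and 1.27, 2.25 and 12.4 CPM in males; 1 of 7 male libraries lay above the lowest female one (2.89 ± 0.70, adjusted p = 0.0107). Its call was lost without male 10% fat replicate 2 or replicate 3, with adjusted p up to 0.0524. Pgr, the progesterone receptor, was near the limit of detection in males: 4 counts in all 7 male libraries together, 4 of them at 0, against 365 in the 8 female ones, which spread over 0.0782, 0.877 and 2.01 CPM. The ratio of counts, each over the summed library totals of its sex, was 80.2, with an exact 95% interval of 31.1 to 296 that covers counting error only (adjusted p = 0.000894). Of the 15 steroid receptors and steroid enzymes tested, Pgr alone differed, against 4.22% of all genes called in either direction. Esr1, the oestrogen receptor alpha, was at 54.7 to 99.2 CPM in females and 73.7 to 94.4 CPM in males (−0.17 ± 0.10, adjusted p = 0.439).

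Greb1, a gene known for its induction by oestrogen, was the 1 of 13 tested steroid-responsive genes that differed, against 4.22% of all genes. It was at 3.37, 6.71 and 9.75 CPM in females and 1.27, 2.12 and 2.94 CPM in males with no overlap (1.63 ± 0.27, adjusted p = 0.000104). Stc2, the secreted protein stanniocalcin 2, was at 9.7, 19.3 and 34.5 CPM and 3.27, 4.37 and 6.27 CPM (2.22 ± 0.31, adjusted p = 4.49e-06). Akr1c14, a dehydrogenase of hydroxysteroids, was at 3.84 to 14.4 CPM in females and 1.97 to 2.72 CPM in males (1.42 ± 0.19, adjusted p = 4.03e-06). Tmem266 (1.68 ± 0.21, adjusted p = 6.76e-07) and Chil1, a chitinase-like secreted protein (1.58 ± 0.22, adjusted p = 6.64e-06), were also above every male library in every female one. Further increases at 5 CPM or more, with log2 differences of 0.97 to 1.12, were those of the matrix protein Postn, the acetylcholinesterase anchor Prima1, the receptor tyrosine kinase Kit, the Wnt modulator Sfrp4, the repressor Hic1 and Rhpn2, the last with mostly fractional counts. Among them Prima1 (1.04 ± 0.18, adjusted p = 0.000161) and Hic1 (0.97 ± 0.21, adjusted p = 0.00299) separated the sexes completely, while Postn lost its call without any 1 of 3 libraries (replicate 2 of the females on 44% fat, replicate 3 of those on 10% fat or replicate 2 of the males on 10% fat; adjusted p up to 0.0618).

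Keratins and other genes of epithelial cells were also higher in the CAST/EiJ females. Krt18, a keratin of simple epithelia, was at 1.68, 4.45 and 12.4 CPM in females and 0.0249, 0.0401 and 0.18 CPM in males (6.16 ± 0.81, adjusted p = 2.23e-06). Its partner Krt8 had 8 counts in all male libraries together against 1478 in the female ones (adjusted p = 8.82e-06), which is a ratio of 162 with an exact 95% interval of 82.2 to 377 for counting error only. A list of epithelial markers was written after these values were seen, so its count supports nothing: 13 of 13 tested members were higher in females, among them Krt19 (5.08), the adhesion proteins Epcam (5.27) and Cdh1 (2.49), and the transcription factor Elf5 (4.13). Their summed level was 9.28 to 50.9 CPM in female libraries and 0.849 to 2.14 CPM in male ones. By diet, the female sums were 9.28 to 39.1 CPM on 10% fat and 32.6 to 50.9 CPM on 44% fat. In C57BL/6J the sum was above that of every male library of the study in 5 of 8 female libraries, and in NZO/HlLtJ in 0 of 8. Within CAST/EiJ, Prlr was highest in the library highest in Krt18 (female 44% fat replicate 1, 32.5 and 12.4 CPM). Oxtr was 15.4 CPM there and highest in female 10% fat replicate 3 (65.5 CPM, with Krt18 at 6.1 CPM).

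Values with a per-library score of these epithelial markers in the model stand beside the sex effect, because the score separates the sexes in this strain. The standard errors were then 1.91 times larger at the median, and 21 genes were called higher and 19 lower in females. Among the 172 higher genes at 5 CPM or more, the median difference was 0.37 without the score and 0.41 with it. Among the 193 below 5 CPM it was 1.52 without and 0.58 with it. The 335 lower genes had a median of −0.33 without and −0.19 with it, and 296 of them kept their sign. Prlr went to −0.0039, Oxtr to 0.26 and Pgr to 1.12. Amd1 was at −1.94 (adjusted p = 6.07e-06), Smox at −1.73 (adjusted p = 0.00785) and Akr1c14 at 1.91 (adjusted p = 0.00726). The calls lost with it included Odc1 (−0.70, adjusted p = 0.201), Slc15a5 (−2.56, 0.11) and Slc30a2 (−0.79, 0.272). They also included Greb1 (2.12, 0.0585), Stc2 (1.45, 0.215) and the clock gene Per3 (0.61, 0.33). The score came from markers listed after they were seen to be high in these females, so in this strain it follows sex closely. Epithelial RNA and sex cannot be told apart by it, and the part of epithelial RNA in the differences was not tested.

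**Figure D3:**
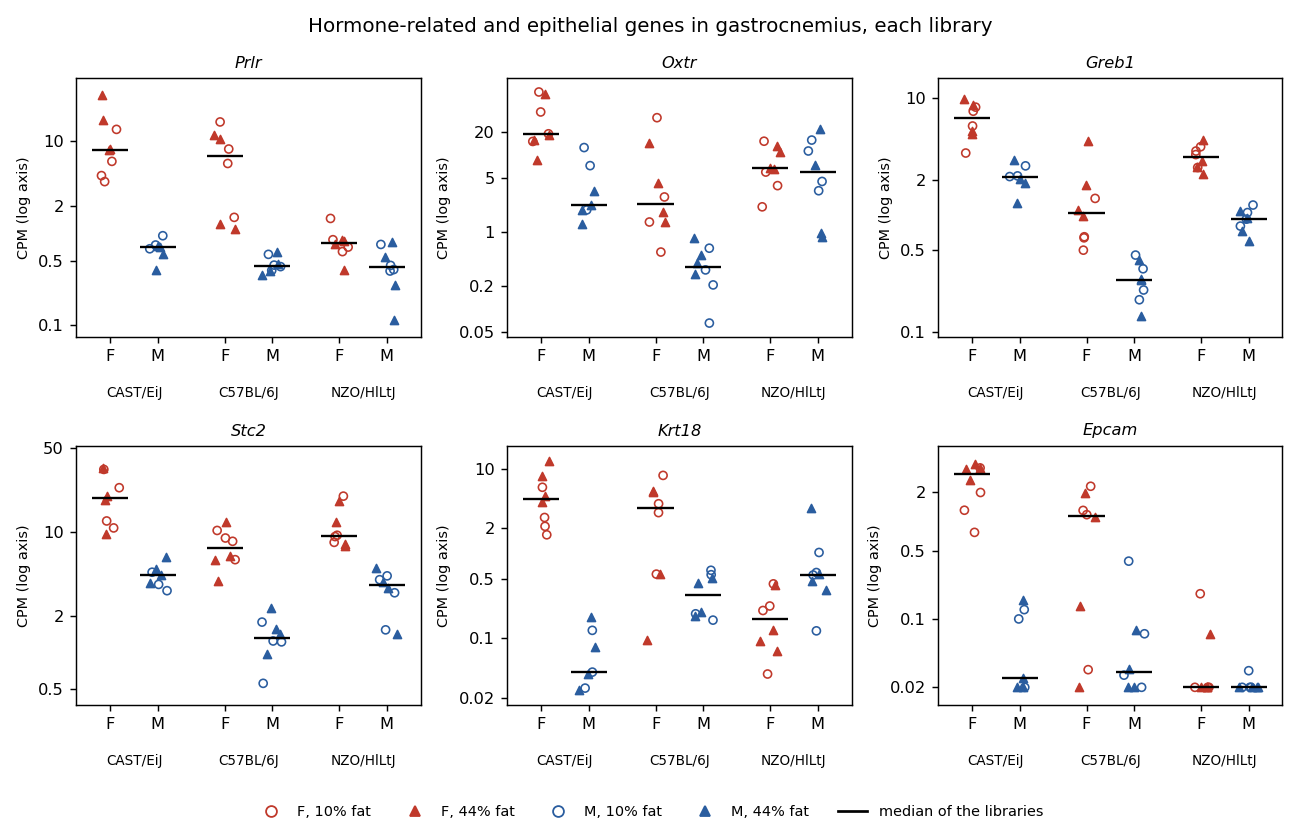
Level of Prlr, Oxtr, Greb1, Stc2, Krt18 and Epcam in each library (CPM, log axis, values under 0.02 drawn at 0.02) by strain and sex; open circles are 10% fat, filled triangles 44% fat, and bars the median. All 8 female CAST/EiJ libraries lie above all 7 male ones for each gene except Oxtr, and the female C57BL/6J libraries fall into high and low ones for Prlr, Krt18 and Epcam.

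Clock genes changed in both directions. The circadian clock is a feedback loop: ARNTL with CLOCK or NPAS2 switches on the Per and Cry genes and Dbp, whose products then act back on the loop, and DBP, TEF and NFIL3 bind the same DNA element, the D-box. Of 19 clock genes tested, 4 were higher and 3 lower in females, against 4.22% of all genes called in either direction; the list median was −0.04. Per3 was at 18.5, 27.8 and 38.6 CPM in females and 10.3, 14.1 and 25.8 CPM in males (0.90 ± 0.16, adjusted p = 0.000292), and 2 male libraries reached into the female range. Dbp, an activator at D-boxes, was at 12, 31.8 and 53.7 CPM and 9.7, 16.4 and 24.6 CPM (1.11 ± 0.32, adjusted p = 0.0363); none of its counts were whole. Cry2, a repressor of the loop with some fractional counts, gave 0.34 ± 0.08, adjusted p = 0.012, and Tef, the other activator, 0.23 ± 0.07, adjusted p = 0.0452.

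The 3 lower genes are known to peak at a different time of day from Dbp and Per3. Npas2, a partner of ARNTL, was at 0.417, 0.642 and 1.48 CPM in females and 0.547, 1.64 and 2.23 CPM in males (−1.14 ± 0.31, adjusted p = 0.0251). Arntl, the core activator, was at 4.59, 8.93 and 22.1 CPM and 9.31, 17.9 and 21 CPM (−0.75 ± 0.22, adjusted p = 0.0423). Nfil3, the repressor at D-boxes, was at 12.6, 26.9 and 34.9 CPM and 29.9, 31.9 and 54.5 CPM (−0.61 ± 0.17, adjusted p = 0.0262). Female and male libraries overlapped for all 7 genes. Per2 (0.85, adjusted p = 0.0935) and Clock (−0.37, adjusted p = 0.0545) did not pass. The clock time of collection was not found in the labels, so time of day and sex cannot be told apart.

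Only Per3 of the 7 kept its call without any 1 library (adjusted p up to 0.00315). The others lost it without any 1 of 2 libraries for Cry2, 5 for Nfil3, 6 for Npas2, 8 for Dbp and 11 for both Tef and Arntl. Male 10% fat replicate 2 was among them for each of these 6, and the highest adjusted p was 0.134 for Tef and 0.132 for Dbp. The sample identifiers in the titles fall into 3 stretches of consecutive numbers, here called runs, each of which holds both sexes on both diets. Female minus male in log2 CPM was 0.45, 1.23 and 0.73 for Per3 in runs 1 to 3, 0.24, 1.53 and 1.11 for Dbp and −0.27, −1.30 and −0.54 for Arntl, of 1 sign in every run. Fitted on the CAST/EiJ libraries alone, Cry2, Npas2, Nfil3, Arntl and Tef were not called.

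Per3 is shown as the clock gene with matches among those whose upstream stretch was searched (Per3, Dbp and Arntl). Its 250 bases before the start lie on the minus strand at chr4:151044666-151044915 (RefSeq, GRCm38.p6), with matches to the D-box form TTATGTAA in capitals.
Per3: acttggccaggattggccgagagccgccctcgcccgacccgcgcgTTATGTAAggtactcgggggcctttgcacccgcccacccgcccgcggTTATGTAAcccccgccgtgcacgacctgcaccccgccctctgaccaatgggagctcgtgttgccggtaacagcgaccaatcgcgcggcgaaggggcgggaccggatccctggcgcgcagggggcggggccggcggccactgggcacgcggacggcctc
The 2 matches lie 205 to 198 and 158 to 151 bases before the start. At least 1 TTATGTAA on either strand occurs in 0.819% of the 32851 stretches of this length. The forms TTACGTAA (0.113% of stretches), the E-box CACGTG (6.02%) and the ROR element core AGGTCA (14.0%) were not matched in it. A match is a description and not a measured binding site.

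**Figure D4:**
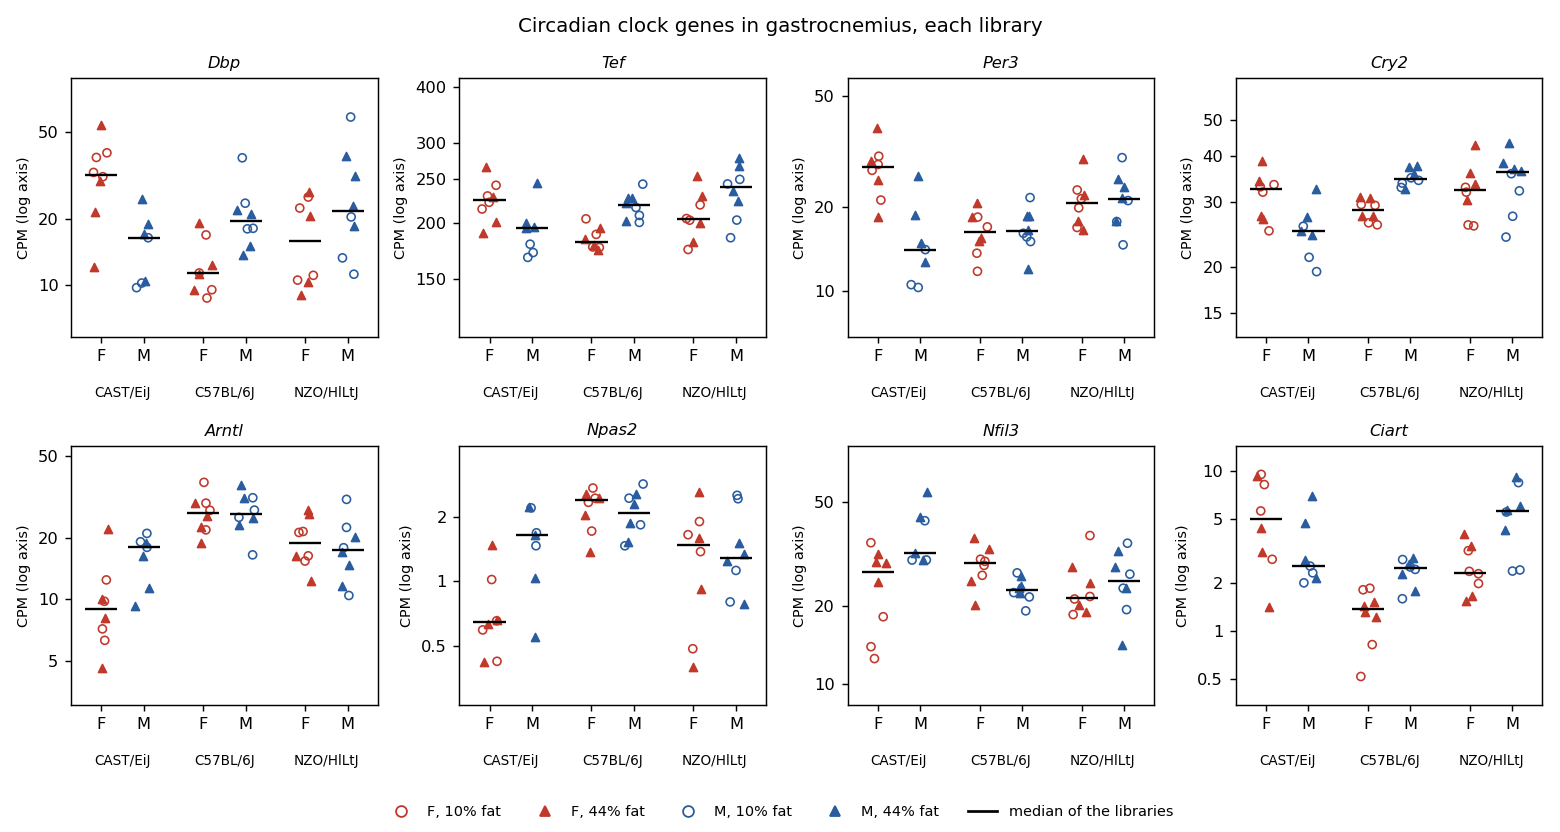
Level of 8 clock genes in each library (CPM, log axis) by strain and sex; open circles are 10% fat, filled triangles 44% fat, and bars the median. In CAST/EiJ the female median is above the male one for Dbp, Tef, Per3, Cry2 and Ciart and below it for Arntl, Npas2 and Nfil3, with overlapping libraries in each panel.

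Few growth factor genes were called. Of 20 genes of growth hormone, STAT5 and IGF signalling, 1 was higher and 1 lower in females, with a list median of −0.0055. The counts in this paragraph stand beside 2.2% of all genes tested called higher in females and 2.02% lower. Among 20 genes of growth hormone, STAT5 and IGF signalling, Igfbp5, an IGF-binding protein abundant in muscle, was at 187, 262 and 437 CPM in females and 455, 511 and 638 CPM in males with no overlap (−0.82 ± 0.14, adjusted p = 0.000138). Igf2r, which clears IGF2, was slightly higher (0.17 ± 0.05, adjusted p = 0.0426), a call lost without any 1 of 11 libraries with adjusted p up to 0.12. Igf1 itself gave −0.16 (adjusted p = 0.717) and Igf2 0.30 ± 0.09, adjusted p = 0.0561. Of 24 tested genes of myostatin, activin and BMP signalling, 2 were lower: the activin receptor Acvr2a (−0.42 ± 0.10, adjusted p = 0.0116) and the signal transducer Smad3 (−0.25 ± 0.07, adjusted p = 0.0408). Acvr2a lost its call without male 10% fat replicate 2 (adjusted p 0.0502), with no whole counts, and Smad3 without any 1 of 11 libraries (up to 0.231). Of 19 genes of the atrophy programme, only Fbxo31, a ubiquitin ligase subunit, was higher, at 97.4 to 117 CPM in females and 84.3 to 91.5 CPM in males (0.29 ± 0.07, adjusted p = 0.00551); the call was lost without the 3 libraries low in lymphocyte markers (adjusted p 0.0517).

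Of 25 genes of insulin signalling and glucose uptake, 2 were higher and 1 lower, against 2.2% and 2.02% of all genes tested. Tbc1d1, a Rab GTPase-activating protein that restrains glucose transporter traffic, was at 95.7, 118 and 201 CPM in females and 62.6, 76.2 and 93.9 CPM in males (0.78 ± 0.16, adjusted p = 0.0018). Foxo3, a transcription factor of fasting and atrophy, was at 54.3 to 69.8 CPM and 38.6 to 51 CPM (0.43 ± 0.10, adjusted p = 0.00546). For both, every female library was above every male one. Akt1 was lower by a small amount (−0.16 ± 0.05, adjusted p = 0.0493), lost without any 1 of 11 libraries with adjusted p up to 0.166.

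Fuel metabolism differed at single genes, where 2.2% of all genes tested were called higher in females and 2.02% lower. Of 22 glycolysis and glycogen genes, Fbp2, the muscle fructose-bisphosphatase, was higher (0.69 ± 0.16, adjusted p = 0.00752) and Pgam2, the muscle phosphoglycerate mutase, lower (−0.28 ± 0.07, adjusted p = 0.0167). Pgam2 lost its call without male 44% fat replicate 2 or male 10% fat replicate 2 (adjusted p up to 0.121), and on the CAST/EiJ libraries alone (0.0564). Of 25 genes of lipid uptake, storage and PPAR targets, Vldlr, the VLDL receptor, was lower (−0.45 ± 0.09, adjusted p = 0.000807) and Acot1, an acyl-CoA thioesterase, higher (1.54 ± 0.34, adjusted p = 0.00415), the latter with mostly fractional counts. The 30 nuclear genes of oxidative phosphorylation had a list median of −0.10. Their sums overlapped, at 9328.5 to 11742 CPM in females and 10482 to 13068 CPM in males. Of these genes, 29 had negative differences, against 49.2% of all autosomal genes tested, and 2 were called lower, against 2.02%. Among the called ones was Cox7a1 of complex IV (−0.25 ± 0.08, adjusted p = 0.0496). Cox7a1 lost its call without any 1 of 11 libraries, with adjusted p up to 0.159. Fatty acid oxidation (19 genes), fatty acid synthesis (16) and branched-chain amino acid breakdown (20) each had 0 genes called, with list medians of −0.03, 0.32 and −0.01. Signs fell mostly on 1 side in other lists too. Differences were positive for 14 of 16 fatty acid synthesis, 16 of 18 interferon and 17 of 20 cell cycle genes. Members of a list were measured in the same libraries and may vary together, so such counts of signs are not a test.

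Fibre type genes did not pass the test in this strain. All of the 16 slow-fibre genes and 17 fast-fibre genes were uncalled, with list medians of 0.21 and −0.09. Differences were positive for 15 of the 16 slow-fibre genes and negative for 13 of the 17 fast-fibre genes, while 49.2% of all autosomal genes tested were negative. Here too the members may vary together, so the counts of signs are not a test. Myh7, the slow myosin heavy chain, gave 0.24 ± 0.19 (adjusted p = 0.615). By comparison, 11 of the 16 slow-fibre genes were called higher in females in C57BL/6J, against 6.36% of all genes, with a list median of 0.74. In NZO/HlLtJ 11 were, against 5.12%, with a list median of 0.65. The test of the difference itself passed for 2 of the 16 against C57BL/6J (Tnnt1 and Myl2, both with smaller differences in CAST/EiJ) and for 1 against NZO/HlLtJ (Pln, with a larger one in CAST/EiJ), genes picked out here after their values were seen, so a list-wide difference between strains is not shown. For Myh7 it gave adjusted p = 0.0512 against C57BL/6J and 0.167 against NZO/HlLtJ. None of the 19 excitation-contraction coupling genes was called.

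Matrix, synapse and stress genes gave scattered calls, to be read beside 2.2% of all genes tested called higher in females and 2.02% lower. Of 21 extracellular matrix genes, 3 were higher in females: Postn, described above, Lum, the proteoglycan lumican (0.56 ± 0.11, adjusted p = 0.00104), and Fn1, fibronectin (0.56 ± 0.12, adjusted p = 0.00411). At the neuromuscular junction (20 genes), Agrn, the agrin that clusters acetylcholine receptors, was higher (0.27 ± 0.06, adjusted p = 0.00678), as was the receptor subunit Chrnb1 (0.41 ± 0.10, adjusted p = 0.0101), while the adult subunit Chrne was lower (−0.32 ± 0.10, adjusted p = 0.0451). Of 22 glutathione and antioxidant genes, Gpx3, the secreted glutathione peroxidase, was at 45.4 to 149 CPM in females and 43.3 to 60.0 CPM in males, with overlap (0.71 ± 0.16, adjusted p = 0.00566; 0.1 on the CAST/EiJ libraries alone, 0.08 in the additive model of sex and diet on them), and Gstm2, a glutathione transferase, was also higher (0.30 ± 0.08, adjusted p = 0.033). Of 21 heat shock and unfolded protein genes, Xbp1 was higher (0.26 ± 0.06, adjusted p = 0.011) and Hspb8 lower (−0.24 ± 0.07, adjusted p = 0.0451). Ifit3, with no whole counts, was the 1 of 18 interferon genes called (0.91 ± 0.27, adjusted p = 0.0481). Among markers of other cells, Pi16 of fibroblasts (0.43 ± 0.11, adjusted p = 0.0147) and Sox10 of Schwann cells (0.87 ± 0.20, adjusted p = 0.00631) were higher and Itga7 of satellite cells (−0.17 ± 0.05, adjusted p = 0.0367) lower, each 1 of 7 or 8 markers tested. Of the 7 Schwann cell markers 4 had negative differences, and the list median was −0.02. The calls of Chrne, Gstm2, Hspb8, Ifit3 and Itga7 were lost without any 1 of 10, 10, 9, 10 and 10 of the 15 libraries, with adjusted p up to 0.18 for Ifit3 and 0.183 for Itga7. Pi16 lost its call without replicate 2 of the females on 44% fat or of the males on 10% fat (up to 0.087), and Xbp1 without female 44% fat replicate 2 (0.0502) or on the CAST/EiJ libraries alone (0.0739). Chrnb1 lost it without the 3 libraries low in lymphocyte markers (0.0671). Complement and cell cycle genes had 0 of 14 and 0 of 20 called.

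The sex difference was then taken within each diet. On 10% fat, with 4 female and 3 male libraries, 90 genes were called (0.542% of those tested), 42 of them higher in females (0.253%) and 48 lower (0.289%). On 44% fat, with 4 and 4 libraries, 329 were called (1.98%), 171 higher (1.03%) and 158 lower (0.952%). Amd1 differed by −2.18 on 10% fat and −2.32 on 44% fat, Smox by −1.95 and −1.79, and Slc15a5 by −3.37 and −2.70. Prlr went from 3.16 to 4.69 and Gbp7 from −2.11 to −1.28. Of the clock genes, Per3, Dbp and Arntl had values nearer to 0 on 44% fat: Per3 1.17 and 0.62, Dbp 1.53 and 0.70, Arntl −1.12 and −0.38; the test below called none of these differences. The test of the difference between diets called 0 autosomal genes with edgeR (669 at an unadjusted p under 0.05, smallest adjusted p 1), and 0 with DESeq2 and with limma-voom. Without female 10% fat replicate 4 it called 1. The counts within a diet moved with single libraries: on 10% fat, 47 genes were called without male replicate 2 and 54 without male replicate 3, against 90 with all. On 44% fat, 159 were called without female replicate 2, 201 without female replicate 4 and 202 without male replicate 2, against 329.

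Genes lower in CAST/EiJ females were often lower in females of another strain too. In the same fit, 1056 genes were higher and 1453 lower in C57BL/6J females (6.36% and 8.76%), and 849 and 1111 in NZO/HlLtJ females (5.12% and 6.7%). Of the 335 lower genes, 191 were also lower in C57BL/6J, which is 57.01% of the CAST/EiJ list and 13.1% of the C57BL/6J list, and 158 in NZO/HlLtJ (47.2% and 14.2%). Of the 365 higher genes, 137 were also higher in C57BL/6J (37.5% and 13.0%) and 75 in NZO/HlLtJ (20.5% and 8.83%). In all 3 strains 135 genes were lower and 51 higher. The sex effect itself differed from C57BL/6J for 416 genes (2.51%), more positive for 291 (1.75%) and more negative for 125 (0.753%). It differed from NZO/HlLtJ for 408 (2.46%), more positive for 274 (1.65%) and more negative for 134 (0.808%). Both tests use the same CAST/EiJ libraries.

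Several decreases in females were smaller in CAST/EiJ than in the other strains. Amd1 differed by −2.25 in CAST/EiJ, −3.32 in C57BL/6J (adjusted p of the difference 0.000246) and −3.07 in NZO/HlLtJ (0.00676). Odc1 differed by −0.75, −1.76 (0.000437) and −1.63 (0.00301). Smox at −1.87, −2.34 and −2.03 was not shown to differ (adjusted p 0.404 and 0.813). Slc30a2, a zinc exporter, showed the widest gap of these: 13.7, 15.9 and 19.3 CPM in CAST/EiJ females and 24.7, 32.4 and 42.3 CPM in males (−0.98 ± 0.15, adjusted p = 2.87e-05), but −3.93 in C57BL/6J and −3.68 in NZO/HlLtJ (adjusted p of the difference 2.26e-11 and 2.16e-10). Female libraries ranged over 13.7 to 19.3 CPM in CAST/EiJ, 1.21 to 2.1 CPM in C57BL/6J and 1.71 to 6.12 CPM in NZO/HlLtJ, so CAST/EiJ females lay above those of both other strains, whose ranges overlap. Actr3b, a relative of the actin nucleator subunit Arp3, gave −0.88, −3.72 and −1.96 (adjusted p of the difference 9.59e-14 and 0.000114), and Cdk19 −1.21, −2.26 and −2.07 (2.13e-05 and 0.000588).

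Effects beyond those of both other strains were found for 30 of the 365 higher and 9 of the 335 lower genes, among 16592 tested. Each passed the sex test and both tests of the difference, all of which use the same CAST/EiJ libraries. Casr was lower in CAST/EiJ females (−1.23) and higher in those of C57BL/6J (1.28) and NZO/HlLtJ (0.55), with adjusted p of the difference 1.64e-11 and 1.42e-07. Gbp7 at −1.69 stood against −0.23 and −0.24 (0.000157 and 0.000288). Of the clock genes, Dbp at 1.11 stood against −0.78 and −0.66 (0.0101 and 0.0177), Per3 at 0.90 against −0.05 and −0.04 (0.00973 and 0.0115), and Cry2 and Tef also differed from both. Ciart, a clock repressor not called in CAST/EiJ itself (0.74 ± 0.27, adjusted p = 0.129), differed from both as well (0.00787 and 0.00376). Mss51, a mitochondrial protein of muscle, was chosen after its values were seen: 147, 228 and 323 CPM in females and 82.1, 119 and 170.0 CPM in males (0.85 ± 0.19, adjusted p = 0.00413), against −1.21 in C57BL/6J and −0.93 in NZO/HlLtJ (2.28e-06 and 4.58e-05). Its CAST/EiJ call, like those of Dbp, Tef and Igfn1, was lost without the 3 libraries below 1 CPM in lymphocyte markers. Igfn1, a sarcomere-associated immunoglobulin protein chosen likewise, gave 0.63 against −0.24 and −0.56; its CAST/EiJ call was lost without male 10% fat replicate 3 (adjusted p 0.0549).

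The remaining differences named by the rule had no sex effect called in CAST/EiJ or rested on 1 other strain. Mybph, a myosin-binding protein, gave 0.21 in CAST/EiJ against 2.57 in C57BL/6J and 1.47 in NZO/HlLtJ (2.55e-08 and 0.00125); none of its counts were whole. Chrna9, an acetylcholine receptor subunit, gave 0.55 against 3.93 in C57BL/6J (0.00776), and Odf3l2 0.33 against −2.30 and −1.74 (0.00368 and 0.032). Prlr gave 3.98 in C57BL/6J, a difference that did not pass the test (adjusted p 0.994), and its effect differed from that in NZO/HlLtJ (0.72, 0.00438), as did Krt18 (−1.92, 5.18e-06) and Krt8 (−1.50, 8.12e-05).

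**Figure D5:**
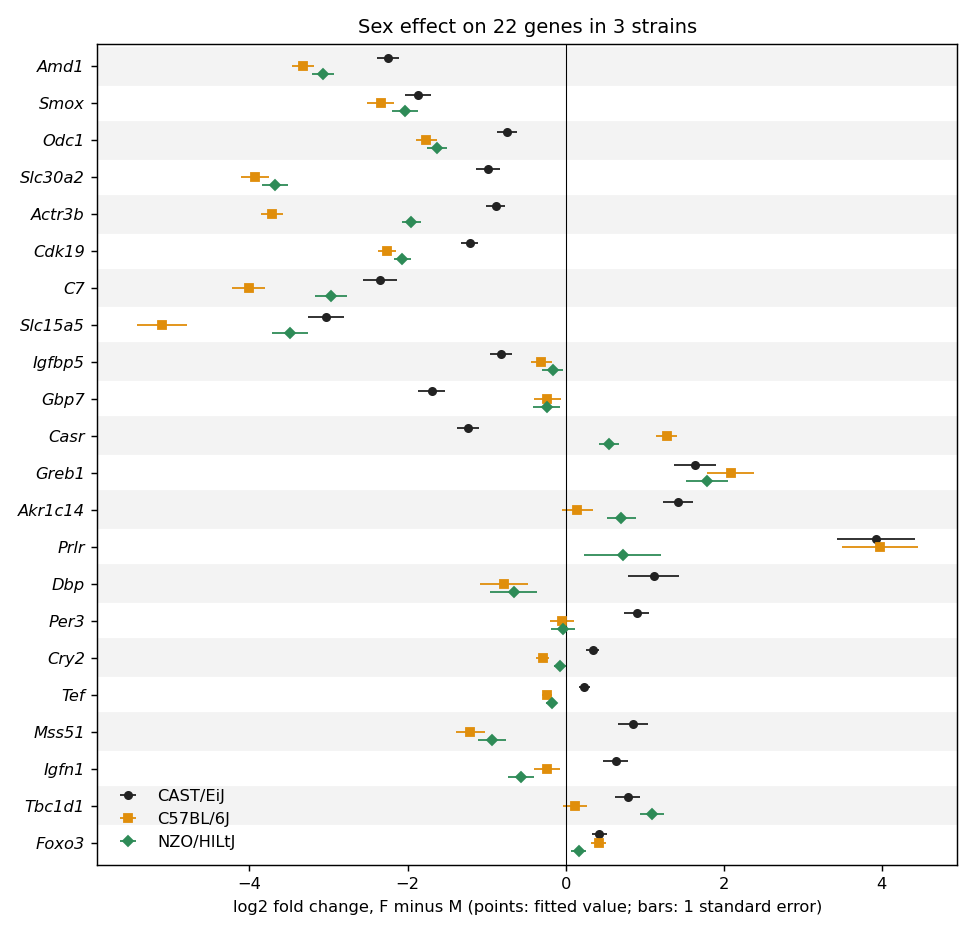
Log2 difference of female minus male for 22 genes in CAST/EiJ (circles), C57BL/6J (squares) and NZO/HlLtJ (diamonds), with bars of 1 standard error. Amd1, Odc1, Slc30a2, Actr3b and Cdk19 lie closer to 0 in CAST/EiJ. Casr, Dbp, Per3, Cry2, Tef, Mss51 and Igfn1 are among those on the other side of 0 from both other strains. Per3 is close to 0 in those strains.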

How the data were processed

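Poly(A) RNA of gastrocnemius was sequenced from 47 samples, from 100 ng of RNA each, as 100 bp read pairs, per the labels' protocols. The authors deposited expected counts, that is estimated counts per gene and library, for 20796 genes, of which 81.19% of values were whole to within 1e-06. The submitters' processing notes name GRCm38 and DESeq2; which aligner, quantifier, annotation release or strain genomes were used is not given in the sources used here. A read that matches the reference less well in 1 strain could be counted less there; female and male CAST/EiJ libraries share this. The other deposited values (variance-stabilized) were not used.

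Expected counts were rounded and fitted in R 4.3.3 with edgeR 4.0.16 (filterByExpr, TMM scaling, quasi-likelihood test) over all 47 libraries, with 12 groups of strain, sex and diet and 3 runs of sample numbers (33 residual degrees of freedom, common dispersion 0.0425). The sex effect is the mean over both diets of female minus male. P-values were adjusted by Benjamini and Hochberg over 17159 genes, and 0.05 was the threshold; counts cover the 16592 autosomal ones. Levels are CPM, counts over the TMM-scaled library size. On simulated counts for this comparison (16761 genes), 73.1%, 94% and 98.5% of genes changed by 1.5, 2 and 4 fold were recovered, and 5.9% of calls were false. Changes were put only into genes with a mean of at least 1 CPM, and other genes had no strain, sex, diet or run effect. Recovery at lower levels was not simulated. In the data, 87 higher and 19 lower calls were under 1 CPM in the sex with the higher mean. Identifiers matched GENCODE M21 for 20677 genes, and promoter stretches were matched by symbol for all 6 genes searched.

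Named genes were, by rule, the 15 with the largest differences in each direction at 5 CPM or more among called protein-coding genes with the same sign on both diets, of each list the 4 members lowest in p, and the 6 largest of each difference test. Arntl, Tef, Mss51, Igfn1, Esr1, Epcam, Elf5, Krt19 and Cdh1, and list members or counts given without CPM ranges (such as Srm, Per2 and Myh7), were added after their values were seen. The members and the lists were chosen with earlier results of these data known. Alternatives were other scaling, filters and tests (DESeq2 1.42.0, limma 3.58.1), fits on CAST/EiJ libraries alone, marker scores as covariates and leaving out each library. Some genes that the rule or a count would name are not reported here. Replicate numbers follow the order of deposit and pair nothing.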

Additional observations from a re-analysis of the deposited data

Results flagged for a closer look

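The sex effect of some genes named above differed between strains by a test of the difference itself (edgeR's quasi-likelihood interaction test, adjusted p under 0.05). Against C57BL/6J, the female minus male difference of CAST/EiJ was more positive (log2 difference of the 2 sex effects) for Slc30a2 (2.95), Actr3b (2.83), Odf3l2 (2.64), Slc15a5 (2.08), Mss51 (2.06), Dbp (1.89), Ciart (1.71), C7 (1.66), Akr1c14 (1.27), Amd1 (1.08), Cdk19 (1.05), Odc1 (1.01), Per3 (0.95), Amd2 (0.87), Igfn1 (0.87), Cry2 (0.63), Vldlr (0.62) and Tef (0.47). Against C57BL/6J, the female minus male difference of CAST/EiJ was more negative (log2 difference of the 2 sex effects) for Chrna9 (−3.39), Casr (−2.51), Mybph (−2.36), Gbp7 (−1.46), Gstm2 (−0.70) and Xbp1 (−0.39). Against NZO/HlLtJ, the female minus male difference of CAST/EiJ was more positive (log2 difference of the 2 sex effects) for Krt8 (8.56), Krt18 (8.07), Krt19 (4.67), Prlr (3.20), Slc30a2 (2.70), Cdh1 (2.45), Odf3l2 (2.07), Acot1 (2.04), Ciart (1.81), Mss51 (1.79), Dbp (1.77), Igfn1 (1.20), Chil1 (1.15), Actr3b (1.07), Prima1 (1.05), Per3 (0.93), Odc1 (0.88), Cdk19 (0.85), Amd1 (0.82), Chrnb1 (0.60), Cry2 (0.41), Tef (0.41) and Agrn (0.32). Against NZO/HlLtJ, the female minus male difference of CAST/EiJ was more negative (log2 difference of the 2 sex effects) for Casr (−1.78), Gbp7 (−1.45), Mybph (−1.26), Gstm2 (−0.87), Xbp1 (−0.41), Pgam2 (−0.40) and Akt1 (−0.37).

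A single library stood apart from the other 3 of its group, by the gap to its neighbour over the range of the group, in 11 of 237 pairs of a named gene and a CAST/EiJ group of 4. Chance alone flags about 1 in 20. Amd1 was lowest in female 44% fat replicate 2 at 83.2 CPM, with 126 to 134 CPM in the other 3. Kcnf1 was highest in female 10% fat replicate 4 at 12.6 CPM, with 4.62 to 5.38 CPM in the other 3. Kcnf1 was lowest in male 44% fat replicate 1 at 11.7 CPM, with 17 to 18.2 CPM in the other 3. Npnt was lowest in male 44% fat replicate 4 at 4.95 CPM, with 8.24 to 8.94 CPM in the other 3. Tmem266 was highest in female 44% fat replicate 2 at 16.3 CPM, with 7.51 to 7.99 CPM in the other 3. Sfrp4 was highest in male 44% fat replicate 3 at 5.77 CPM, with 3.88 to 4.14 CPM in the other 3. Cry2 was lowest in female 10% fat replicate 1 at 25.1 CPM, with 32 to 33.5 CPM in the other 3. Tbc1d1 was highest in female 44% fat replicate 2 at 201 CPM, with 114 to 122 CPM in the other 3. Pgr was lowest in female 44% fat replicate 3 at 0.0783 CPM, with 1.78 to 2.01 CPM in the other 3. Fbxo31 was lowest in male 44% fat replicate 2 at 85.2 CPM, with 90.7 to 91.5 CPM in the other 3. Tef was highest in male 44% fat replicate 4 at 244 CPM, with 195 to 199 CPM in the other 3.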

How the results depend on the processing

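Under other scaling, filters and tests (DESeq2 size factors, no filter on low counts, a filter of 1 CPM in 7 CAST/EiJ libraries, DESeq2's test, limma-voom, CAST/EiJ libraries alone, an additive model, no run term), the sex effect gave 562 to 853 called genes against 700. On the CAST/EiJ libraries alone 562 genes were called, 460 of them among the 700. On 10% fat, DESeq2's test called 169 genes against 90. The score of lymphocyte markers as a covariate gave 1222 calls in all, 680 of them lower in females, 229 on 10% fat, 595 on 44% fat and 754 against NZO/HlLtJ. The score of epithelial markers, chosen after seeing the data like the 5 CPM limit and the removal of 3 libraries low in lymphocyte markers, gave 40 (21 higher, 19 lower), 27, 7 and 86. With it the log2 difference changed sign for Prlr (−0.0039), Kit (−0.32), Krt8 (−0.45), Acvr2a (0.072), Itga7 (0.011), Epcam (−0.60) and Elf5 (−0.79). Krt8, Epcam and Elf5 are themselves part of the score, so the loss of their difference was built in and shows nothing. Genes of at least 5 CPM gave 464 calls, 172 of them higher, by fewer genes counted. Except for the 5 CPM limit, the cause of these shifts was not tested.

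Leaving out 1 library at a time gave 423 to 756 calls for the sex effect, 230 to 356 higher, 193 to 400 lower, 47 to 111 on 10% fat, 159 to 486 on 44% fat, 0 to 1 between diets, 314 to 453 against C57BL/6J and 299 to 466 against NZO/HlLtJ. Without the 3 libraries low in lymphocyte markers there were 280 higher and 323 lower, and calls were lost for Gadd45g, Dbp, Npas2, Nfil3, Akt1, Igf2r, Smad3, Chrnb1, Gstm2, Hspb8, Ifit3, Cox7a1, Fbxo31, Itga7, Arntl, Tef, Mss51 and Igfn1. On the CAST/EiJ libraries alone they were lost for Cry2, Npas2, Nfil3, Akt1, Smad3, Pgam2, Chrne, Gpx3, Xbp1, Hspb8, Ifit3, Cox7a1, Itga7, Arntl and Tef. Of 73 named genes called, 50 were called without any 1 library. No paired analysis was possible because replicate numbers follow only the order of deposit and pair no libraries. Depth limits genes such as Krt8 and Pgr, where a few counts in males set the difference.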

Other observations

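Other genes whose sex effect in CAST/EiJ went beyond that in both other strains were chosen after their values were seen. Among the 9 lower in females was Fgl2, a secreted fibrinogen-like protein of immune regulation, with a log2 difference of female minus male of −0.59 ± 0.10 (adjusted p = 0.000138) against 0.17 in C57BL/6J and −0.02 in NZO/HlLtJ (adjusted p of the differences 0.000652 and 0.0152). Arhgef3, a guanine exchange factor, gave −0.67 ± 0.14 (adjusted p = 0.00278) against 0.17 in C57BL/6J and 0.17 in NZO/HlLtJ (adjusted p of the differences 0.0143 and 0.0137). Female and male CAST/EiJ libraries did not overlap for either gene.

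Among the 30 higher in females at 5 CPM or more was Rarb, a retinoic acid receptor, with 0.41 ± 0.09 (adjusted p = 0.00569) against −0.56 in C57BL/6J and −0.42 in NZO/HlLtJ (adjusted p of the differences 7.26e-06 and 0.00014). Slc6a6, the taurine transporter, gave 0.24 ± 0.07 (adjusted p = 0.0341) against −0.22 in C57BL/6J and −0.23 in NZO/HlLtJ (adjusted p of the differences 0.00292 and 0.00301), and Adcy6, an adenylate cyclase, 0.29 ± 0.06 (adjusted p = 0.00152) against −0.01 in C57BL/6J and −0.05 in NZO/HlLtJ (adjusted p of the differences 0.034 and 0.0141). Libraries of the sexes overlapped for these 3 genes. Others of the 30 were at low levels and are known from epithelia. Col17a1, a collagen of hemidesmosomes, was at a mean of 1.27 CPM in females and 0.0533 CPM in males and gave 4.40 ± 0.48 (adjusted p = 4.21e-08) against 1.08 in C57BL/6J and −0.26 in NZO/HlLtJ (adjusted p of the differences 0.0015 and 5.18e-06). Ehf, an epithelial transcription factor, was at 3.04 and 0.0969 CPM and gave 4.94 ± 0.79 (adjusted p = 6.62e-05) against 1.18 in C57BL/6J and 0.71 in NZO/HlLtJ (adjusted p of the differences 0.0432 and 0.0473). The part of epithelial RNA in these differences was not tested.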
